A study of Mus musculus with 9 samples.

Results

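Muc13, a mucin gene on mouse chromosome 16, had a mean of 2980 ± 1942 normalized counts (SD, n = 3) in control livers and at most 1 read in any library from mice given doxycycline (Dox) or tetracycline (Tc). The genes described are Muc13 and 6 named genes beside it on the same chromosome, in the order Zfp148, Slc12a8, Heg1, Muc13, Itgb5, Umps and Kalrn. They are 7 of the 32285 genes in the deposited table. Muc13 was chosen by its measured values, that is its fall with both drugs, so its change is given as a description with no test. The 6 neighbours were chosen by position, and their changes are rows of a fit over 12100 genes. The question was whether the loss was private to Muc13 or shared by the locus.

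RNA was sequenced from the livers of 4-week-old Tet-OFF mice in 3 groups of 3 libraries. These mice carry a piggyBac CAG-CreERT2 transgene and, at the Rosa26 locus, a loxP-flanked stop before the tTA transactivator and a tetO-Venus-ires-mCherry reporter. They were made from V6.5 embryonic stem cells, a cross of C57BL/6 and 129 strains, by way of chimeras with an ICR host, and the sites of the piggyBac insertions are not given in the sources used here. Mice of all 3 groups, controls included, had received tamoxifen, which lets Cre remove the stop wherever the ubiquitous CAG promoter is active. The Dox and Tc groups then drank water with 2 mg/mL of the drug and sucrose for 7 days, and both drugs block tTA. In these mice a difference from controls can therefore follow the drug itself or the block of tTA, and the groups here cannot tell these apart. Dox and Tc share the same ring system and differ in the position of a hydroxyl group.

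Muc13 encodes a transmembrane mucin, a heavily glycosylated protein of the apical surface of epithelial cells that is best known from the intestine. Heg1 encodes another mucin-like membrane protein, which binds Krit1 and is known for its part in heart and vessel development. Itgb5 is the integrin beta subunit that pairs with the alpha V chain in a vitronectin receptor, and Umps is the enzyme of the last steps of uridine monophosphate synthesis. Kalrn is a guanine nucleotide exchange factor for small GTPases, Zfp148 is a zinc finger transcription factor, and Slc12a8 belongs to the cation-chloride cotransporter family.

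Muc13 (ENSMUSG00000022824) lies on the plus strand of GRCm38 at chr16:33794037-33819934, with 2 annotated transcripts of 13 and 12 exons that begin at different first exons. Heg1 ends 22.5 kb before it and Itgb5 begins 9.7 kb after it. An antisense gene, Gm15657, overlaps both Muc13 and Heg1 on the minus strand and had 1 read in all 9 libraries together. The bases before the start sites of Muc13 and of the genes on either side are shown because these neighbouring starts differ in base composition. They are taken from RefSeq's start sites (GRCm38.p6), stop before the first annotated exon, and have each CG pair in capitals.
Muc13, first start, chr16:33793787-33794036: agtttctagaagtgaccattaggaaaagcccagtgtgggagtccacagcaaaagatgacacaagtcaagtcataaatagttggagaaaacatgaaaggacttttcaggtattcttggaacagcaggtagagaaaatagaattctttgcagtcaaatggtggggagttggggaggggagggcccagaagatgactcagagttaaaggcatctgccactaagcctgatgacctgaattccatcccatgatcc
Muc13, second start, chr16:33794239-33794366: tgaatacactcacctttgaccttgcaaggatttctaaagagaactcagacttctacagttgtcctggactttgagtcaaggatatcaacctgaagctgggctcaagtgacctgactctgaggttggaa
Heg1, chr16:33684216-33684369: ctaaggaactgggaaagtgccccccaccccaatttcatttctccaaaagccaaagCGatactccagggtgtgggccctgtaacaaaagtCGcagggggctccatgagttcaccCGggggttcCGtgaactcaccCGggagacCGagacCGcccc
Itgb5, chr16:33829415-33829664: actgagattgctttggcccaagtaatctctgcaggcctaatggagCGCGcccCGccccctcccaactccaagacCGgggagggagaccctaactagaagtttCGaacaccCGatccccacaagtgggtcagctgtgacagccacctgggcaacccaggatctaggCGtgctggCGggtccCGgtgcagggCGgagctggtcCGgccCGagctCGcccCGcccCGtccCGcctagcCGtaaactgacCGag

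The 250 bases before the first Muc13 start held 0 CG pairs, as did 7.87% of the 32851 RefSeq start sites of the mouse table. The median over those start sites was 6. The second Muc13 start had 4 in its 250 bases, all of them within the annotated first exon of the shorter transcript. Heg1 had 21 CG pairs in its 250 bases and Itgb5 had 18, and 85.2% and 80.3% of start sites had as many or fewer. For Heg1, 7 CG pairs lay in the 154 bases shown before its first annotated exon, and for Itgb5 all 18 did. Among the other neighbours, Zfp148 had 23 and 40 at its 2 starts, Umps 10, Kalrn 9, and Slc12a8 between 3 and 6 at its 3 starts. All 7 genes matched the start site table. These counts describe sequence only, and no methylation was measured.

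Depth ranged from 7426136 to 12183041 reads on genes per library. The third library in every group could be written as a mixture of the other two, fitted as 58.7% of library 1 and 40.8% of library 2 in controls, 61.3% and 34.4% with Dox, and 59.8% and 36.9% with Tc. Where libraries 1 and 2 were more than 2-fold apart, the value of library 3 fell inside their range for 211 of 215 control genes, 2972 of 2987 Dox genes and 470 of 473 Tc genes. The adjusted p-values from all 9 libraries are therefore too small, and values without libraries 3 are given beside them. Liver identity was clear from albumin, with Alb between 255548 and 1408836 normalized counts in every library. In bulk liver, fewer cells of a type and less RNA per cell cannot be told apart. The labels do not name separate animals, while the study's methods call the libraries of a group biological replicates and independent samples. With libraries 3 as found here, p-values measure the spread between these libraries.

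Muc13 had 1186 normalized counts in control library 1, 5043 in control library 2 and 2713 in control library 3. With Dox the values were 0, 1.15 and 0, and with Tc they were 0, 0.899 and 0. Every control was therefore far above every library of either drug, and the 2 values above 0 with the drugs were 1 read each. In reads, the controls had 1120, 5700 and 2134, against 1 read among 27254916 with Dox and 1 read among 34539372 with Tc. Scaled for depth, the control level was 9248-fold the Dox level, with an exact 95% interval from 1659 to 365330, and 10399-fold the Tc level, with an interval from 1866 to 410786. These intervals cover counting error only. Without libraries 3 the ratios were 5979 (1073 to 236173) for Dox and 7021 (1260 to 277339) for Tc. Both drug groups were under the 3 reads taken as the floor, so no ratio of Dox to Tc is given.

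**Figure D1:**
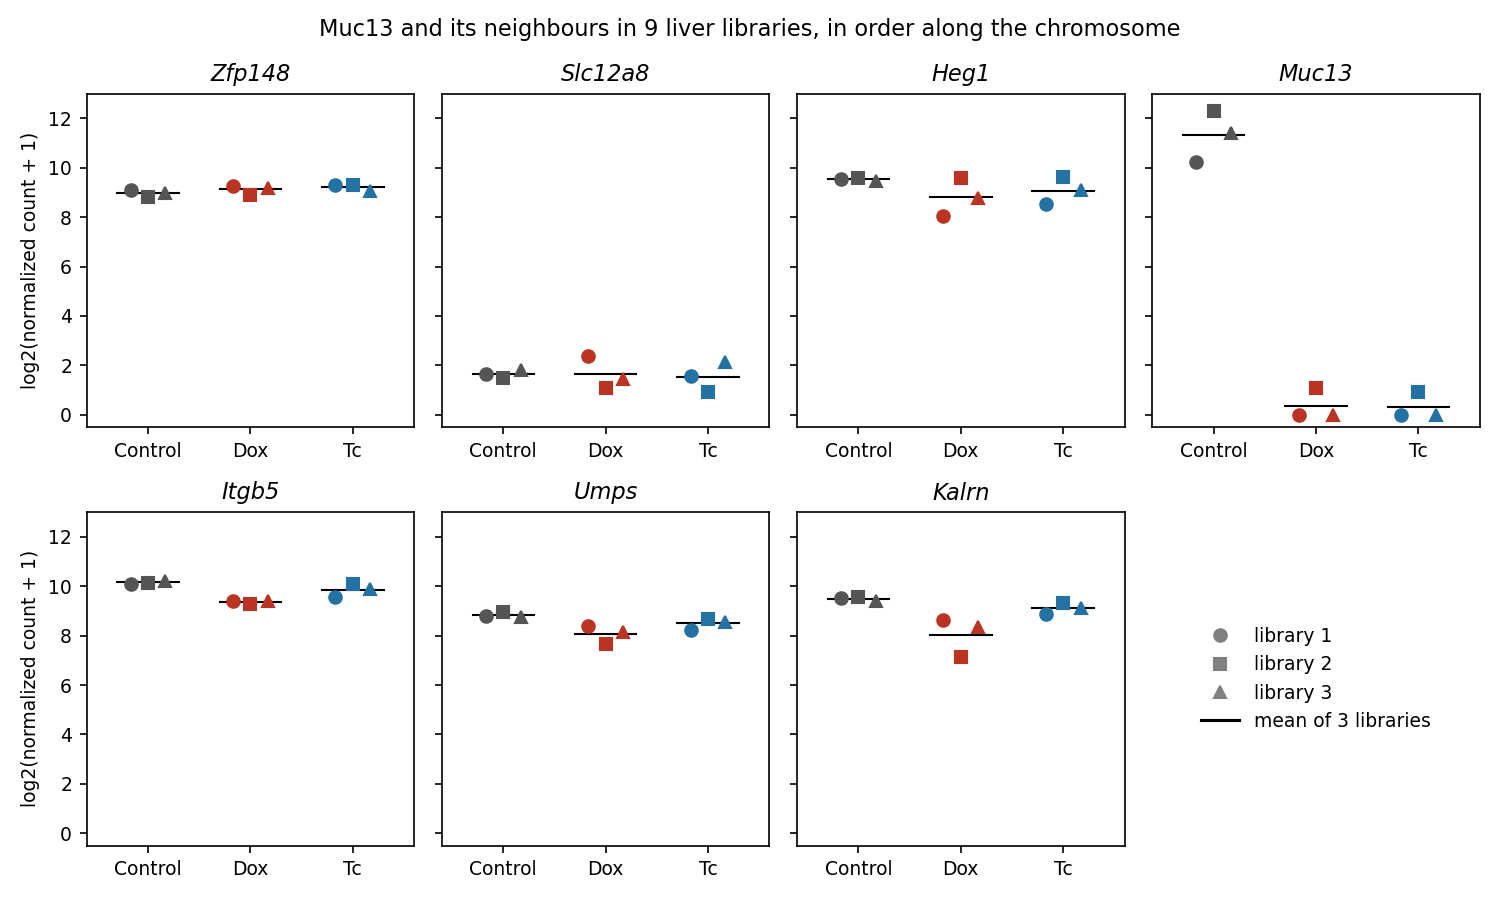
Normalized counts of Muc13 and its 6 neighbours on the log2(normalized count + 1) scale, with a panel per gene in order along the chromosome, a symbol per library and a bar for the mean of 3 libraries. Muc13 lies between 1186 and 5043 in the controls and between 0 and 1.15 with either drug, while Zfp148, Heg1, Itgb5, Umps and Kalrn have at least 138 normalized counts in every library.

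On the log2(normalized count + 1) scale the fitted difference of Muc13 was -10.94 (SE 0.57) with Dox and -11.00 (SE 0.57) with Tc. Both were the lowest of the 12100 genes, ahead of Cyp3a41a at -9.33 with Dox and Gm43305 at -7.85 with Tc. The size of these fitted values depends on the pseudocount, since the drug libraries are near 0, and they are no bound on the ratio.

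Muc13 also varied more among controls than its neighbours did. Control library 2 had 4.25 times the level of control library 1, whereas the same ratio lay between 0.813 and 1.12 for the 5 neighbours with enough reads. Of 7699 genes with a control mean of at least 100 normalized counts, 24 were at least 4-fold apart between those libraries in either direction, Muc13 among them. Control library 3, at 2713, was close to the 2756 that the mixture of libraries 1 and 2 gives.

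Per kilobase of exon, Muc13 was the highest of the 7 genes in controls. Its control level was 981 normalized counts per kb, with libraries from 390 to 1660, and ranked 364 among 12096 tested genes with a known length. Itgb5 followed with 320 per kb (310 to 336), then Umps with 130 (125 to 141), Heg1 with 58.5 (55.8 to 60.9), Zfp148 with 48.1 (43.1 to 53.0) and Kalrn with 30.0 (28.2 to 31.1). Slc12a8 was last with 0.482 per kb. No 2 genes next to each other in this order overlapped among the control libraries. With the drugs the mean of Muc13 was 0.126 per kb with Dox and 0.0987 with Tc, from 1 read per group, and that of Slc12a8 was 0.534 and 0.467, from 7 reads per group. These low levels were not put in order.

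Upstream of Muc13, none of the neighbours came near 0 where they had been present. Zfp148 (chr16:33380836-33504363) had 550, 448 and 501 normalized counts in controls, 618, 477 and 576 with Dox, and 636, 629 and 532 with Tc. The Dox and control values overlapped and so did those of Tc and controls. The log2 difference was 0.15 (SE 0.15, limma adjusted p = 0.509) with Dox and 0.26 (SE 0.15, limma adjusted p = 0.546) with Tc.

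Slc12a8 (chr16:33517328-33664135) was near the limit of detection everywhere. It had 1 to 4 reads per library, 6 reads over the controls, 7 over the Dox libraries and 7 over the Tc libraries. It failed the filter of a mean of 10 normalized counts and was not tested, so 5 of the 6 neighbours were.

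Heg1 (chr16:33684370-33771576), the gene closest upstream, had 748, 775 and 711 normalized counts in controls, 264, 766 and 432 with Dox, and 367, 783 and 539 with Tc. Library 2 of each drug group was at the control level and library 1 was the low one, so the groups overlapped. The log2 difference was -0.74 (SE 0.38, limma adjusted p = 0.231) with Dox and -0.47 (SE 0.38, limma adjusted p = 0.709) with Tc. Without Dox library 2, Heg1 passed both thresholds with Dox, at -1.14 and a limma adjusted p of 0.0294. Without libraries 3 the difference with Dox was -0.76 (limma adjusted p = 0.676).

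Downstream of Muc13, the levels of Itgb5, Umps and Kalrn were lower than in controls in every Dox and Tc library, by far less than Muc13. Itgb5 (chr16:33829665-33949338) had 1101, 1110 and 1195 normalized counts in controls, 680, 613 and 665 with Dox, and 757, 1093 and 954 with Tc. Its Dox libraries stood well below the controls, while Tc library 2 was just under the lowest control. The log2 difference was -0.80 (SE 0.15, limma adjusted p = 0.0187) with Dox, short of the 2-fold limit, and -0.30 (SE 0.15, limma adjusted p = 0.497) with Tc. Without libraries 3 the Dox value was -0.77 (limma adjusted p = 0.566), and without any 1 of the 3 controls or Dox library 3 the limma adjusted p ranged from 0.0593 to 0.0899.

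Umps (chr16:33954782-33967038, minus strand) had 437, 490 and 436 normalized counts in controls, 331, 203 and 280 with Dox, and 300, 407 and 377 with Tc. No drug library reached the lowest control, and the lowest of all was Dox library 2. The log2 difference was -0.77 (SE 0.20, limma adjusted p = 0.0474) with Dox, again short of 2-fold, and -0.34 (SE 0.20, limma adjusted p = 0.563) with Tc. Without libraries 3 the Dox value was -0.84 (limma adjusted p = 0.573). The adjusted p of Umps with Dox was 0.0572 with no filter on low values, 0.0658 with the same total per library, 0.0979 with only Dox and controls in the fit, and 0.0540 to 0.154 without any 1 of the 3 controls, of the 3 Tc libraries or Dox library 3.

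Kalrn (chr16:33969073-34573532, minus strand) had 734, 748 and 679 normalized counts in controls, 392, 138 and 322 with Dox, and 465, 645 and 550 with Tc. Dox library 2 had less than any other library, and the Tc libraries lay between the Dox and control ranges. With Dox, Kalrn fell by 1.47 on the log2 scale (SE 0.34, limma adjusted p = 0.0363), the only named neighbour past both a 2-fold change and an adjusted p under 0.05. With Tc the difference was -0.39 (SE 0.34, limma adjusted p = 0.734). The call rested on few libraries. Without libraries 3 the Dox difference was -1.67 with a limma adjusted p of 0.559 and -1.48 with a DESeq2 adjusted p of 0.232. Without any 1 of the 3 controls, of the 3 Tc libraries or Dox library 3, the limma adjusted p ranged from 0.0510 to 0.119. With the replicate number as a block it was 0.0610 for Kalrn and 0.0876 for Umps.

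Those counts are read against all genes. With Dox, 1 of the 5 tested neighbours was called, beside 5% of all tested genes called in either direction and 3.86% called lower. At an adjusted p under 0.05 with no fold limit, 3 of 5 were lower, beside 5.26% of all genes, and without control library 1, 2 or 3 or Dox library 3 none of these 3 passed. The same 3 had an unadjusted limma p under 0.05, beside 29.1% of all genes. With Tc, 0 of 5 were called by limma, DESeq2 or edgeR, beside 0.165% of all genes in either direction and 0.124% lower under limma, and 0 of 5 had an unadjusted limma p under 0.05, beside 11.7% of all genes. Without libraries 3, limma called 0 of all 12100 genes with Dox, so the 0 among the neighbours is no result about them, and 3 of the 5 had an unadjusted p under 0.05, beside 8.6% of all genes. DESeq2 without libraries 3 called 0 of the 5, beside 1.19% of all genes called in either direction and 0.835% called lower, with Itgb5 and Kalrn at an unadjusted p under 0.05, beside 10.5% of all genes.

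Widening the view to all genes that overlap the 1 Mb on each side of Muc13 gave 24 genes, 19 of them protein coding. No read fell on 5 of them, and 16 passed the filter on low values. With Dox, Kalrn was the only called gene of the 16, beside 5% of all genes. With Tc 0 of 16 were called, beside 0.165%, and Lmln alone had an unadjusted limma p under 0.05, or 1 of 16 beside 11.7% of all genes. The median log2 difference of the 16 genes was 0.06 with Dox and 0.03 with Tc, against 0.00 for all tested genes in either comparison. Tested genes in the window ranged from -1.47 for Kalrn to 0.45 for Rpl35a with Dox, and from -0.47 for Heg1 to 0.63 for Lmln with Tc. Muc13, at -10.94 and -11.00, was far below the lowest of them in both comparisons.

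All 3 Dox libraries lay below all 3 controls for 3 of the 16 genes, or 18.8%, beside 17.1% of all tested genes, and above them for 4 of 16, or 25.0%, beside 16.1%. With Tc the same 3 genes, Itgb5, Umps and Kalrn, lay below all controls, beside 14.9% of all genes, and Lmln alone lay above, beside 15.8%. Over this window the share below was close to the background with either drug. The 4 genes above with Dox were Fyttd1, Rpl35a, Lmln and Osbpl11, at distances from 551 to 885 kb upstream, and none was called. Of these, Rpl35a, a protein of the large ribosomal subunit, had 278, 297 and 239 normalized counts in controls and 341, 403 and 369 with Dox, a log2 difference of 0.45 (SE 0.13, limma adjusted p = 0.0639).

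The genes at both ends of the window overlapped the controls. Mylk, myosin light chain kinase and the last tested gene downstream, had 1141 to 1390 normalized counts in controls, 489 to 1285 with Dox and 1049 to 1603 with Tc. Rubcn, a regulator of autophagy and the first tested gene upstream, had 249 to 315 in controls, 89.7 to 256 with Dox and 253 to 278 with Tc. Neither passed with Dox (Mylk, -0.57, limma adjusted p = 0.286, and Rubcn, -0.70, limma adjusted p = 0.201), and in both the low value was Dox library 2.

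**Figure D2:**
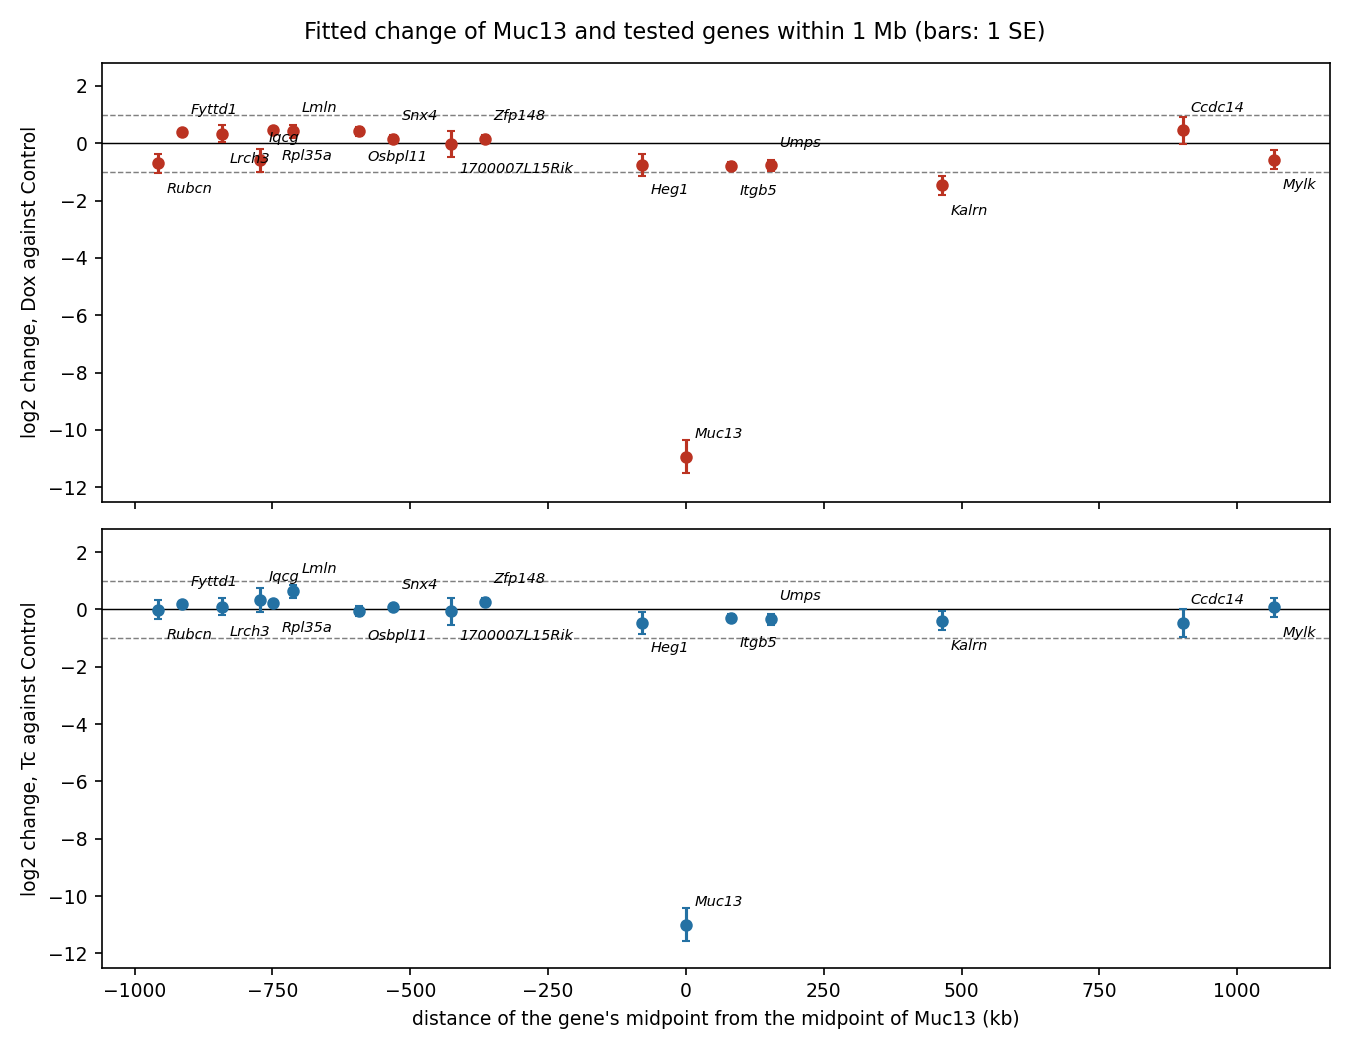
Fitted log2 difference from controls (bars, 1 SE) of Muc13 and the 16 tested genes within 1 Mb, against the distance between gene midpoints in kb, with Dox above and Tc below. Dashed lines mark 2-fold changes, and Muc13 lies at -10.94 with Dox and -11.00 with Tc while all other genes lie between -1.47 and 0.63.

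How far the lower levels reached depended on the window. Within 0.5 Mb, 7 genes were tested and their median was -0.74 with Dox and -0.30 with Tc. In both comparisons 5 of these 7 had a negative difference, beside 50% of all genes with Dox and 49.5% with Tc. All libraries of the drug lay below all controls for 3 of the 7, or 42.9%, beside 17.1% of all genes with Dox and 14.9% with Tc. Within 2 Mb, 39 genes were tested and their median was -0.03 with Dox and -0.07 with Tc. Nrros and Kalrn were called lower with Dox, or 5.13% of the 39, beside 5% of all genes called. Over all of chromosome 16 with Muc13 left out, 13 of 389 tested genes were called with Dox, or 3.34%, also beside 5%. With Tc 0 of the 389 were called, beside 0.165% of all genes.

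Dox and Tc were given at the same dose and for the same time, so their levels could be compared directly in the 5 tested neighbours. None passed both thresholds under limma or DESeq2, beside 0.215% of all genes under limma, and 2 of 5 had an unadjusted limma p under 0.05, beside 21.7% of all genes. Kalrn had a log2 difference of Dox from Tc of -1.08 (95% interval -1.85 to -0.30, limma adjusted p = 0.155) and Itgb5 one of -0.50 (-0.84 to -0.17, limma adjusted p = 0.140). Both had all 3 Dox libraries below all 3 Tc libraries, as had 12.4% of all tested genes. With DESeq2 the adjusted p was 0.0296 for Itgb5, short of 2-fold, and 0.0582 for Kalrn. Umps had -0.43 (-0.88 to 0.02, limma adjusted p = 0.243), Heg1 -0.27 (-1.15 to 0.60, limma adjusted p = 0.671) and Zfp148 -0.11 (-0.44 to 0.22, limma adjusted p = 0.662). Without Dox library 1, Kalrn passed both thresholds, at -1.37 with a limma adjusted p of 0.0264, and Heg1 changed sign to 0.10. These intervals leave out the pairing of same-numbered Dox and Tc libraries. With the replicate number as a block in a fit of Dox and Tc only, 0 of the 5 had an unadjusted limma p under 0.05, beside 13.1% of all genes, and the limma adjusted p was 0.381 for Kalrn (SE 0.42) and for Itgb5 (SE 0.19). The intervals and p-values share the limit set by libraries 3.

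The loss of Muc13 was then set beside that of other genes, as a description, since Muc13 was chosen by these values. Of 6913 genes with at least 100 reads in every control library, Muc13 was the only one with at most 3 reads in every Dox and Tc library. With a limit of 20 reads, 10548 genes qualified and 6 met the limit in the drug libraries, none of the other 5 on chromosome 16. These were Fkbp1b, an FK506-binding protein, Oxtr, the oxytocin receptor, Cebpe, a transcription factor of granulocyte development, and the C-type lectin genes Cd209f and Cd209g. These 5 genes also came to at most 3 reads in every drug library, but their control levels were too low to show a loss as large as that of Muc13. Oxtr had 45.5, 26.5 and 40.7 normalized counts in controls, 0 in all 3 Dox libraries and 0 to 1.80 with Tc. Cd209f had 81.5, 78.7 and 69.9 normalized counts in controls and between 0 and 2.70 in the drug libraries. Cd209g had 46.6, 46.9 and 49.6 in controls and at most 1.05 with either drug. In contrast to Muc13, these lectin genes hardly varied among the controls.

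**Figure D3:**
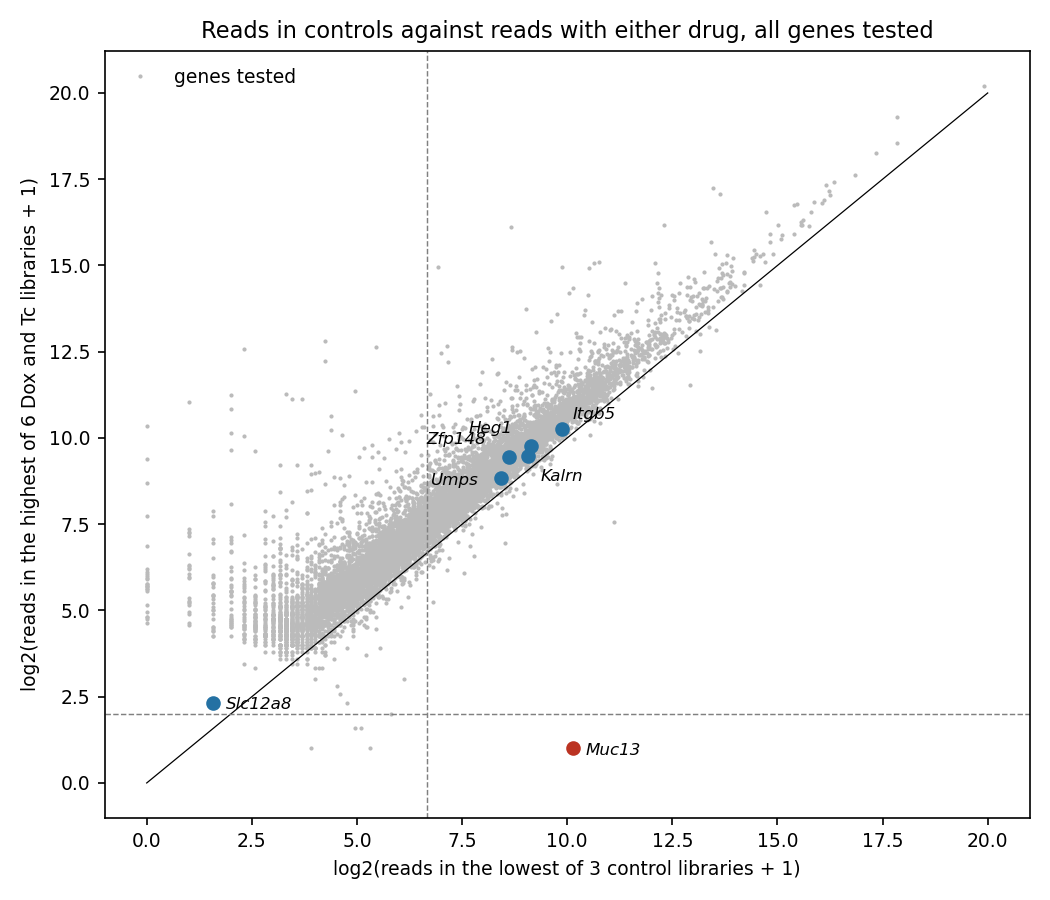
Reads in the lowest of the 3 control libraries (horizontal, log2 of reads + 1) against reads in the highest of the 6 Dox and Tc libraries (vertical, same scale) for all tested genes in grey, with Muc13 in red and its 6 neighbours in blue; Slc12a8 is drawn though it was not tested. Dashed lines mark 100 reads in controls and 3 reads with the drugs, and Muc13, at 1120 reads and 1 read, is the only gene in the lower right field.

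The 5 genes whose values followed Muc13 most closely over the 9 libraries lay on other chromosomes. They were Cntn2, a neural cell adhesion molecule (Pearson r = 0.986 on the log2 scale), Asap1, a GTPase-activating protein for Arf (0.981), Zc3h12d, a zinc finger protein of the Regnase family (0.979), and Cd209f and Cd209g (0.978 each). The 9 points fall into controls and drug libraries and share library 3 with libraries 1 and 2, so these values describe mainly the step from controls to both drugs and carry no test. Cntn2 had 26.5, 50.4 and 29.2 normalized counts in controls and 3.16 to 5.75 in the drug libraries. It was also highest in control library 2, where Muc13 was highest. Asap1 had 353 to 412 in controls and 206 to 252 with the drugs, a far smaller step. Over libraries 1 and 2 alone, 3 of these 5 genes stayed among the 5 closest, and by Spearman's rank none did.

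**Figure D4:**
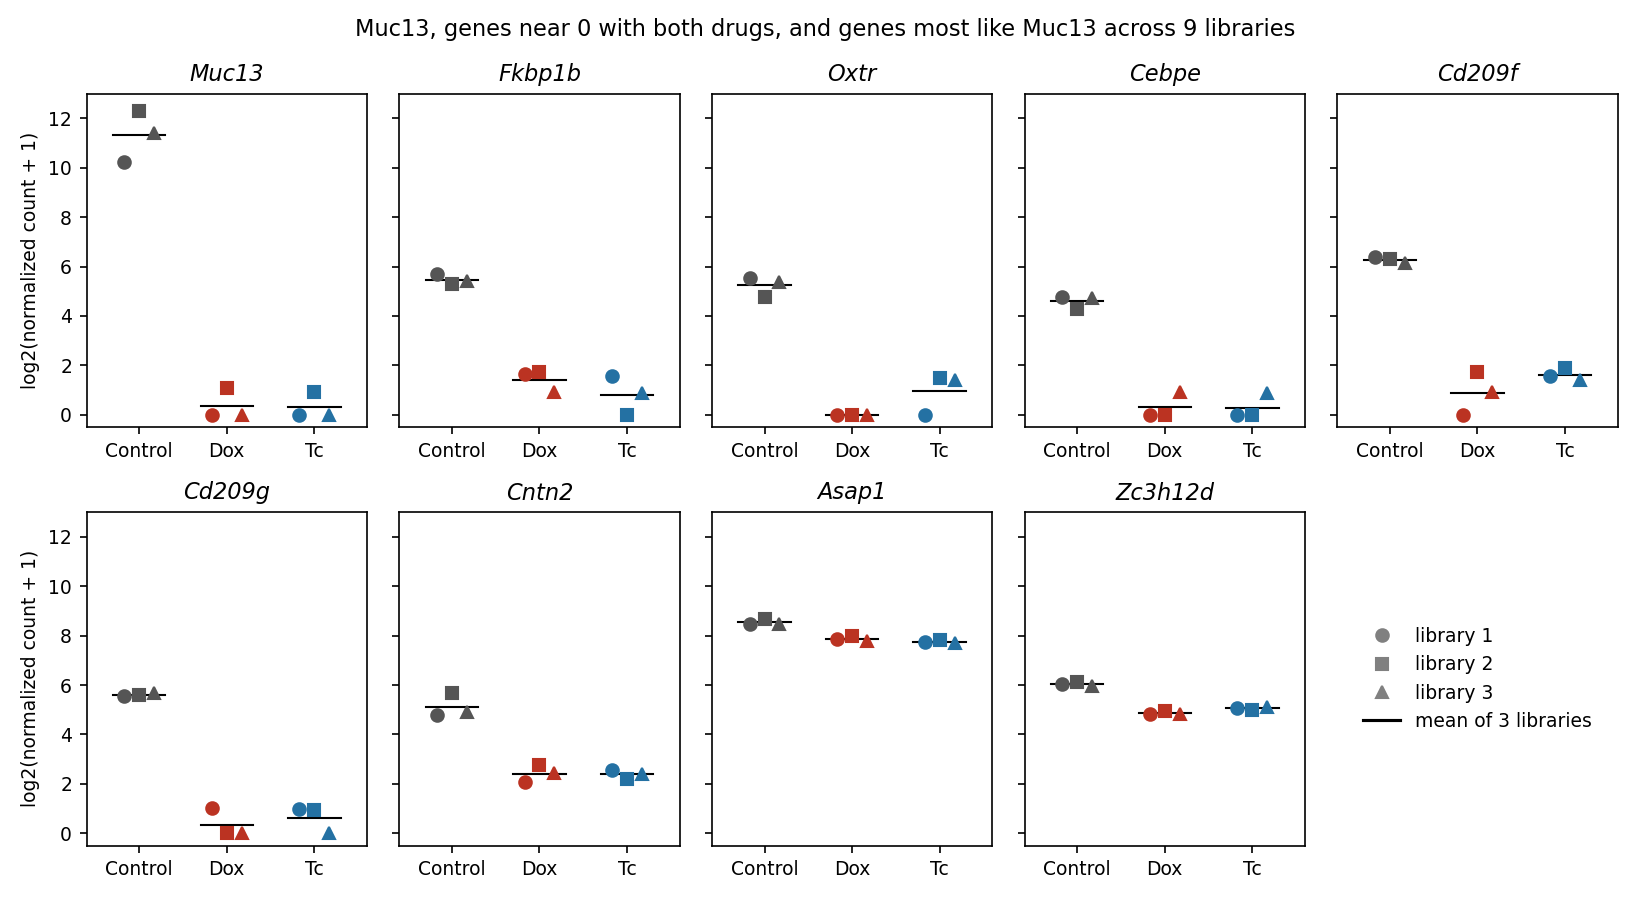
Muc13, the 5 other genes with at least 20 reads in every control and at most 3 in every drug library, and the genes most like Muc13 over 9 libraries, on the log2(normalized count + 1) scale, with a symbol per library and a bar for the mean of 3. Muc13 starts from 1186 to 5043 normalized counts in controls, Asap1 from 353 to 412 and each other gene from at most 81.5.

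Among the neighbours, r with Muc13 over the 9 libraries was 0.725 for Itgb5, 0.683 for Umps, 0.580 for Heg1, 0.567 for Kalrn and -0.629 for Zfp148. Itgb5 ranked 762 among the other tested genes and Kalrn 1675.

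Other mucins were barely present. Of 13 listed mucin genes, 5 had no read in any library and 3 passed the filter. Limma called 0 of these 3 against controls, beside 5% of all genes with Dox and 0.165% with Tc. At an unadjusted limma p under 0.05 there were 2 with Dox, beside 29.1% of all genes, and 1 with Tc, beside 11.7%. DESeq2 and edgeR each called Muc5ac with Dox, where they called 1134 and 668 of all 12100 genes. Muc2, the main secreted mucin of the intestine, had 1.06, 7.08 and 3.81 normalized counts in controls, 0 with Dox and 0 to 2.93 with Tc. Muc3 had 0, 8.85 and 1.27 in controls and 0 in all 6 drug libraries, and its highest value was in control library 2, as for Muc13. Muc16 had 3.54 to 21.6 in controls, 15.0 to 48.4 with Dox and 21.9 to 40.5 with Tc, a log2 difference of 1.59 with Dox (limma adjusted p = 0.137). Muc5ac, a mucin of the stomach surface, had 66.3, 1.15 and 48.4 with Dox and at most 1.06 elsewhere.

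Markers of intestinal epithelium were low beside Muc13, and the defining ones were near 0. Cdx1 had no read, and Cdx2 had 1 read, in control library 2. Vil1 had 1.06, 15.0 and 2.54 normalized counts in controls, highest again in control library 2, 0 to 5.75 with Dox and 0.977 to 2.70 with Tc. Cdh17 was between 1.06 and 3.81 in controls, 0 with Dox and 0 to 2.70 with Tc. The summed level of the 8 intestinal markers was 167 to 288 in controls, 133 to 340 with Dox and 214 to 271 with Tc, most of it from Fabp2, Tff3 and Lgals4. The ranges overlapped between groups, and limma called 0 of the 3 tested with either drug, beside 5% of all genes with Dox and 0.165% with Tc. Tff3, a secreted trefoil peptide, had 51.9 to 112 in controls and 25.3 to 33.4 with Dox. It was the only one with an unadjusted limma p under 0.05 with Dox, beside 29.1% of all genes, and was called by DESeq2 but not by edgeR.

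Bile duct markers moved in both directions. Their summed level over 7 genes was 206 to 245 normalized counts in controls, 148 to 379 with Dox and 260 to 338 with Tc, most of it from Spp1, the secreted protein osteopontin. Spp1 had 204, 150 and 149 in controls, 284, 44.9 and 179 with Dox and 206 to 290 with Tc, so Dox library 2 was the lowest of all 9. Epcam, an adhesion molecule of epithelial cells, had a mean of 10.3 in controls, 7.14 with Dox and 9.31 with Tc, and Cldn7, a claudin, 4.11, 1.64 and 2.76, both under the filter on low values. Krt19, a keratin of bile duct cells, had 5.29, 15.9 and 7.63 in controls and 9.77 to 22.1 with the drugs. Sox9, a transcription factor of duct cells, rose with Dox from 15.0 to 28.0 in controls to 45.3 to 69.0, by 1.38 on the log2 scale (SE 0.28, limma adjusted p = 0.0243). Without libraries 3 its DESeq2 adjusted p was 0.164.

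Stomach markers were found mainly with Dox, where Tff1 had 75.8, 3.45 and 41.3 normalized counts (limma adjusted p = 0.0326, and 0.595 with DESeq2 without libraries 3) and 0 in every other library. Gkn1 and Gkn2 showed the same order of Dox libraries, with Dox libraries 1 and 3 high and Dox library 2 low, as did Muc5ac. The 4 stomach markers summed to 0 to 3.18 in controls, 6.90 to 198 with Dox and 0.899 to 2.53 with Tc. Of the pancreatic acinar markers, Prss2, Cpa1, Pnlip and Amy2a2 had no read, and Cela1 was between 23.0 and 120 in every library. The part of such cells in the Muc13 values was not tested.

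**Figure D5:**
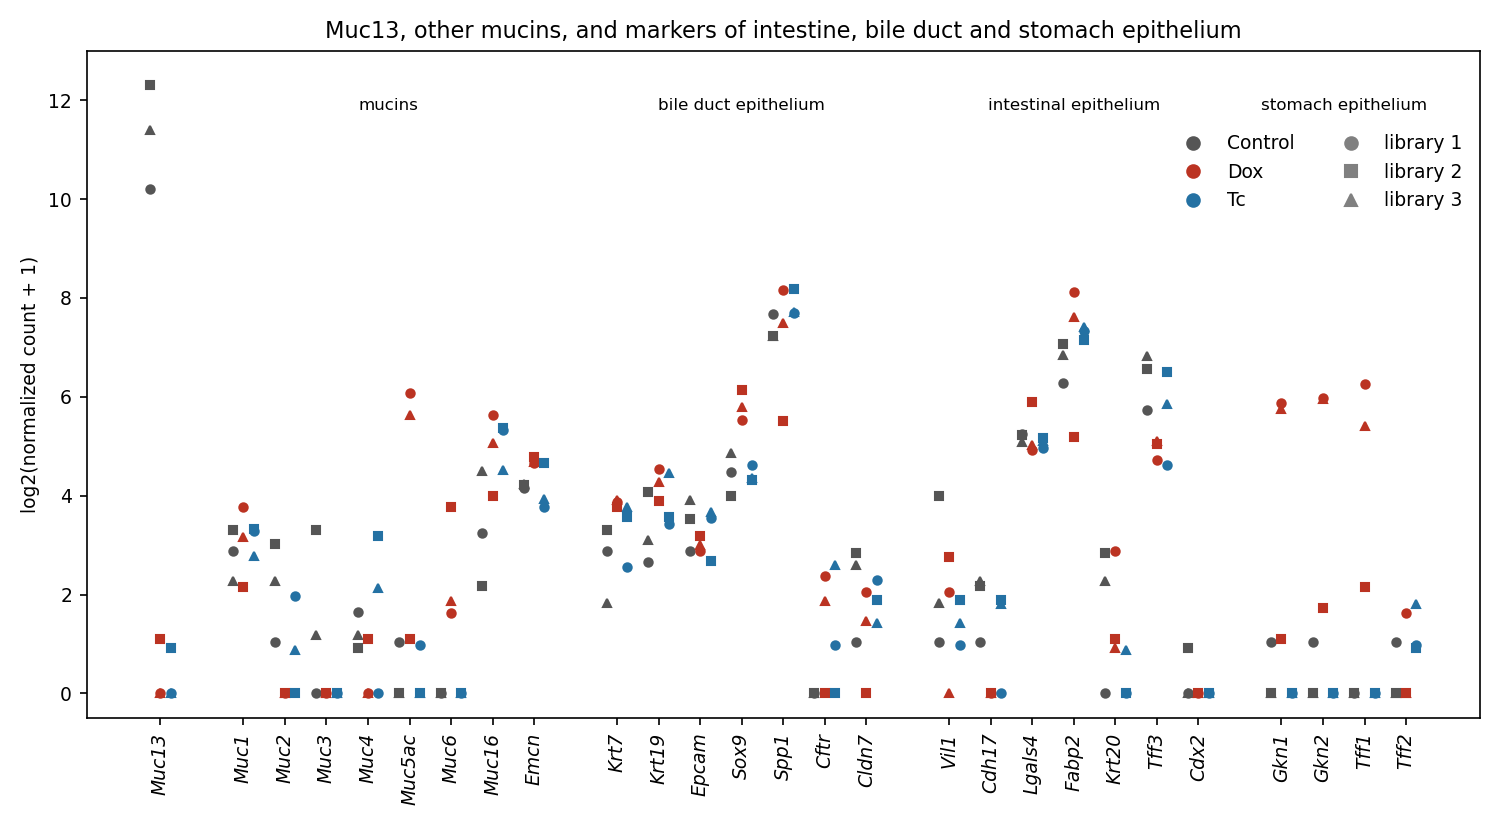
Muc13, the other mucin genes with any read, and markers of bile duct, intestinal and stomach epithelium on the log2(normalized count + 1) scale, with colours for groups and symbols for libraries. Muc13 reaches 5043 normalized counts in controls, while no other gene shown exceeds 289.6 in any library.

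Some markers of endothelium and leukocytes fell with Dox, beside the lower levels of Itgb5, Umps and Kalrn. The 4 endothelial markers summed to 3787 to 3882 normalized counts in controls, 1828 to 2136 with Dox and 2873 to 3397 with Tc. Stab2, a scavenger receptor of sinusoidal endothelium, fell from 1822 to 2013 in controls to 818 to 867 with Dox, by 1.22 on the log2 scale (SE 0.12, limma adjusted p = 0.00468). It was the only called gene of 4 tested, beside 3.86% of all genes called lower. Kdr (-0.84, limma adjusted p = 0.0139) and Clec4g (-0.97, limma adjusted p = 0.0138) were short of 2-fold only. Pecam1 passed neither limit (-0.40, limma adjusted p = 0.282). The leukocyte markers summed to 2491 to 3950 in controls, 760 to 1426 with Dox and 1298 to 2364 with Tc. Most of this sum was Clec4f, of Kupffer cells, at 2149 to 3405 in controls. Clec4f and Ptprc were called lower with Dox among 3 tested, beside 3.86% of all genes called lower. The third, Cd68, was not called and had 109 to 170 in controls and 53.7, 359 and 127 with Dox. Without libraries 3 the DESeq2 adjusted p was 0.00469 for Stab2, 0.266 for Kdr, 0.135 for Clec4g, 0.0187 for Clec4f and 0.349 for Ptprc. With Tc 0 endothelial or leukocyte markers were called by limma, DESeq2 or edgeR, beside 0.165% of all genes under limma. Kdr, Stab2, Ptprc and Clec4f had an unadjusted limma p under 0.05 with Tc, beside 11.7% of all genes. The part of such cells in the neighbours' values was not tested.

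Hepatocyte markers summed to 1096827 to 1560778 normalized counts in controls, 413804 to 791406 with Dox and 776496 to 1218047 with Tc. Most of this sum was Alb, at 956160 to 1408836 in controls. Cps1, the urea cycle enzyme of the same list, went the other way with Dox, from 47780 to 58690 in controls to 62020 to 127213, with a log2 difference of 0.69 (limma adjusted p = 0.257). With Dox limma called 0 of the 5, beside 5% of all genes, and 0 had an unadjusted p under 0.05, beside 29.1%. DESeq2 called Alb, where it called 1134 of all 12100 genes. The tested transcription factors of liver and gut epithelium did not share the near absence of Muc13. Their lowest value in any library was 59.6 normalized counts, for Gata6 in Tc library 1. Of 10 listed, 8 were tested and 0 were called with either drug by limma, DESeq2 or edgeR. The limma background was 5% of all genes for Dox and 0.165% for Tc, so 0 of 8 is no result about these factors. At an unadjusted limma p under 0.05 there was Foxa2 with Dox, beside 29.1% of all genes, and Foxa3 with Tc, beside 11.7%. Hnf4a had 9779 to 11276 normalized counts in controls, 9123 to 20158 with Dox and 9118 to 9827 with Tc. Foxa2 had 219 to 277 in controls and 114 to 159 with Dox, a log2 difference of -0.87 (SE 0.16, limma adjusted p = 0.0175), short of 2-fold, and 216 to 236 with Tc.

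Most of the known partners of the neighbours were not called. Of the 5 genes tested for Heg1 (Krit1, Ccm2, Pdcd10, Klf2 and Klf4) and the 4 for Umps (Cad, Dhodh, Uck1 and Uck2), 0 were called with either drug by limma, DESeq2 or edgeR and 0 had an unadjusted limma p under 0.05. Limma called only 5% of all genes with Dox and 0.165% with Tc, so staying uncalled is no result about these partners. An unadjusted limma p under 0.05 was found for 29.1% of all genes with Dox and 11.7% with Tc. Cad, the enzyme of the first steps of the same pathway as Umps, had 196 to 260 normalized counts in controls, 231 to 259 with Dox and 217 to 257 with Tc. Of the 3 for Itgb5, Itgav, its alpha chain, had 626 to 684 in controls and 575 to 614 with Dox (log2 difference -0.16, limma adjusted p = 0.328). Fn1, fibronectin, was called lower with Dox, from 53247 to 66526 in controls to 22816 to 28224, by 1.25 on the log2 scale (SE 0.29, limma adjusted p = 0.0365), with a DESeq2 adjusted p of 0.144 without libraries 3. Vtn, vitronectin, had 26421 to 30319 in controls and 7577 to 21158 with Dox (log2 difference -1.07, limma adjusted p = 0.0994).

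At the locus of the transgenes, Gt(ROSA)26Sor had 1.27 to 5.31 normalized counts in controls, 0 to 3.52 with Dox and 3.60 to 9.77 with Tc, under the filter. Its neighbours Thumpd3 and Setd5 were not called with either drug by limma, DESeq2 or edgeR, beside 5% of all genes with Dox and 0.165% with Tc under limma. Thumpd3 alone had an unadjusted limma p under 0.05, with Dox, beside 29.1% of all genes. Setd5 had 567 to 622 in controls, 649 to 788 with Dox and 575 to 682 with Tc.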

How the data were processed

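Liver RNA libraries were sequenced from 3 groups (Control, Dox and Tc) of 3. According to the study's methods and its processing notes, the authors trimmed single-end reads with cutadapt, aligned them to mm10 with STAR 2.7.11ac, counted them per gene with HTSeq 2.0.5 and normalized the counts with DESeq2 1.42.0; the strand setting of the counting is not given in the sources used here. The deposited signal holds, for 32285 identifiers, read counts scaled by the authors with 1 size factor for each library. Symbols and coordinates were found for 32158 in GENCODE's GRCm38 annotation. Whole reads were recovered for 100% of values (within 0.01 of a whole number).

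Here log2(normalized count + 1) was tested with limma 3.58.1 (R 4.3.3) with a trend, in a model of all 9 libraries, for the 12100 genes whose mean normalized count reached 10. A gene was called when it passed both a 2-fold change and an adjusted p of 0.05 (Benjamini-Hochberg over all tested genes). DESeq2 1.42.0 and edgeR 4.0.16 on recovered reads were alternatives, with other pseudocounts, filters, scaling, windows, a replicate block, and libraries left out. DESeq2 adjusted p-values given as NA stayed so. The fitting code was tested on simulated data. Same-numbered Dox and Tc libraries, numbered in the labels, deviated together (r = 0.29, 0.32 and 0.18), which libraries 3 make less than independent, and controls did not pair (-0.08 to 0.06). The members and gene lists were chosen with earlier results of these data known. Named genes were the members, called or nearest genes within 1 Mb, the 5 genes with the highest correlation with Muc13, genes near 0 with both drugs, and listed mucins, markers, transcription factors and partners. Nrros, Cyp3a41a and Gm43305, the genes above all controls with Dox, and the 5 genes near 0 at the limit of 20 reads were named after their values were seen. Exonic length was the union of annotated exons. Each counting interval was an exact binomial interval on the reads of both groups.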

Additional observations from a re-analysis of the deposited data

How the results depend on the processing

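The near absence of Muc13 reads with both drugs does not depend on a fit, but its fitted size does. It was -13.41 with Dox and -13.52 with Tc at a pseudocount of 0.1, and -8.25 and -8.26 at 8, while without single libraries it ranged from -11.49 to -10.44 and from -11.54 to -10.50. With 20 reads in place of 100 in every control, 6 genes met the limit in place of 1. Over all alternatives, the neighbours kept their side of both thresholds in 297 of 310 refits. Of the 13 others, 11 were the call of Kalrn with Dox, which was lost in 11 of its 20 refits. Several refits called few or 0 of all tested genes, so staying uncalled in them is no result about the neighbours.

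Kalrn lost its call with Dox with only Dox and controls in the fit (-1.47, limma adjusted p = 0.0943), with the replicate block (-1.47, limma adjusted p = 0.0610) and without libraries 3 (-1.67 with limma and -1.48 with DESeq2); without single libraries it ranged from -1.77 to -1.02. Heg1 with Dox ranged from -1.14 to -0.37 without single libraries. In Dox against Tc, Kalrn ranged from -1.37 to -0.63 and Heg1 from -0.67 to 0.10 without single libraries, and Zfp148 was 0.067 with the same total per library. Within 1 Mb, the 1 gene called with Dox became 0 in the fits in which Kalrn lost its call, 2 within 2 Mb, 3 with no fold limit, and 0 to 2 without single libraries. In Dox against Tc, 0 to 2 were called without single libraries, the 2 without Dox library 1. The cause was not tested.

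Over all genes, the 605 called with Dox became 369 at a mean of at least 50, 1134 with DESeq2, 333 with only 2 groups, 0 with limma without libraries 3 (1040 at an unadjusted p under 0.05), 144 with DESeq2 without libraries 3, and 33 (without control library 3) to 1500 (without Dox library 1). The 20 called with Tc became 10 at a pseudocount of 0.1, 32 with no filter, 9 at a mean of 50, 191 with DESeq2, 276 with only 2 groups, 0 with limma without libraries 3 (239 unadjusted), 9 with DESeq2 without libraries 3, 2 with the replicate block, and 1 to 221 (without Dox library 2) without single libraries. The 26 called in Dox against Tc became 6 at a pseudocount of 0.1, 4 with no filter, 3 with the same total per library, 609 with DESeq2, 2 with the replicate block, 243 with DESeq2 and the block in Dox and Tc only, and 0 to 1362 (without Dox library 1) without single libraries. They became 0 at a pseudocount of 8 (2639 unadjusted), at a mean of 50 (2114), with edgeR (2861), with only 2 groups (1709), with limma without libraries 3 (454) and with the block in Dox and Tc only (1587); that pairing was chosen after seeing the data. The block changed no other call of a named neighbour. The 5 tested neighbours had at least 120 reads in every library, and Slc12a8, at 1 to 4 reads, could not be tested at this depth.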
